A study of Caenorhabditis elegans with 2 samples.

Results

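Aminoacyl-tRNA synthetases are the enzymes that join each amino acid to its own tRNA, the step that gives the genetic code its meaning. Animal cells need the reaction in the cytosol and again inside mitochondria, and both sets of enzymes are encoded in the nucleus, some by separate genes and some by 1 gene whose products reach both places. Their genes were chosen by name, as protein-coding genes called by 1 letter, then ars and a number, and 33 of 19973 nuclear protein-coding genes of *Caenorhabditis elegans* met the rule. Ensembl names 32 of them, and mars-2, which Ensembl lists as Y105E8A.20, was added under its RefSeq name. The gene cars-2 was left out because it is annotated as a pseudogene.

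Chromatin immunoprecipitation followed by sequencing (ChIP-seq) mapped the nuclear hormone receptor NHR-85, the nematode relative of the mammalian clock repressors of the Rev-Erb family. There was 1 group of 2 biological replicates, whole hermaphrodite L1 larvae of strain OP539, taken 6 h after synchronization as larvae starved after bleaching. The strain carries unc-119(tm4063) on chromosome III and the transgene wgIs539, which expresses NHR-85 with GFP and FLAG at its C-terminus, and DNA was recovered with an antibody against GFP. The labels do not give the tissues in which the fusion is made, whether the larvae had been fed, or the state of the native nhr-85 gene. There was no second condition, and no untagged strain or other GFP fusion was analysed here, so sites that any GFP precipitation would give cannot be told apart from those of NHR-85. A peak shows that DNA was recovered there and carries no information on transcript levels.

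Each peak list gives a summit, the position of highest enrichment, and a signal in the peak caller's own units. A gene was counted where a summit fell in a window around any of its transcript starts, reaching 1000 bp upstream and 200 bp downstream. The irreproducible discovery rate (IDR) measures how well peaks are ranked alike by replicates, and the ce11 list thresholded on it holds 2404 distinct peaks, the list called on pooled reads 8389, and the replicate lists 8092 (replicate 1) and 13289 (replicate 2). Read numbers are not in these lists, so depth is unknown.

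NHR-85-GFP summits were found at a minority of the synthetase genes. In the IDR-thresholded list 5 of 33 had one, 15.2% (95% Wilson interval 6.65 to 30.9), beside 8.09% of all protein-coding genes. The 5 were ears-2, kars-1, nars-1, mars-1 and aars-1, and 28 members had none. The background share lies inside the interval of the members, and the count was not tested. It was 5 with a promoter of 500 bp upstream and 100 bp downstream (6.27% of all genes), 6 with one of 2000 and 500 bp (10.7%), and 4 where a summit counted only for its nearest start (6.12%). In the 2404 strongest peaks of replicate 2 alone it was 4 (7.98%), and in those of replicate 1 alone it was also 4 (8.04%). In the stronger 1202 of the IDR-thresholded peaks it was 1 (4.34%), ears-2.

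The sequences at the summits of ears-2, kars-1, mars-1 and aars-1 are shown because these are the bases on which the sites were centred, and that of nars-1 is not printed here. They are reference sequence of WBcel235 (ce11) from RefSeq, reaching up to 50 bases to each side of the summit, read 5′ to 3′ on the strand of the synthetase gene and kept clear of annotated exons. All 4 genes lie on the minus strand, and the summit is base 51 in each. They cover chrIV:390469-390539 for ears-2, chrII:7072703-7072803 for kars-1, chrIV:11635920-11636020 for mars-1 and chrII:11464586-11464686 for aars-1. Capitals mark the only match to the motifs searched, GAGAGA at base 70 of the aars-1 site.
ears-2: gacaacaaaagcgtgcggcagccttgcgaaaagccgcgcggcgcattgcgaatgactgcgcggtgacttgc
kars-1: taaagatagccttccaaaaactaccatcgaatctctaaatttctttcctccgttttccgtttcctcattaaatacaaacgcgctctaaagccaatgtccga
mars-1: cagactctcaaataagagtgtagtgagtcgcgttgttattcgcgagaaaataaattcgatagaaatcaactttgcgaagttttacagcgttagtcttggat
aars-1: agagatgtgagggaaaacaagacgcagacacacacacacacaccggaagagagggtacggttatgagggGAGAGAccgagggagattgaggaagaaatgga
The ears-2 stretch is rich in G and C (62.0%), and those of kars-1 and mars-1 are not (38.6% and 37.6%). The aars-1 stretch (51.5% G and C) holds a run of alternating A and C before its summit. Over windows of 101 bp, the 5 member sites averaged 43.0% G and C, and the 1317 other promoter summits of the IDR-thresholded list averaged 45.2%.

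The strongest site belonged to a mitochondrial enzyme. The gene ears-2 encodes the mitochondrial glutamyl-tRNA synthetase, which RefSeq calls nondiscriminating, a term for enzymes that place glutamate on the tRNA of glutamine as well. Its peak (chrIV:390274-390703, ce11) had a pooled signal of 189 and ranked 936 of 2404, with its summit 21 bp upstream of the start. Replicate 1 gave a signal of 102 with a summit 30 bp upstream, and replicate 2 gave 91.1 with a summit 9 bp upstream. Both replicates placed the summit close to the start. The summit lay in the 92 bp between this start and that of uncp-18, which is transcribed the other way and encodes a syntaxin-binding protein per RefSeq. It was 71 bp upstream of uncp-18 as well, so the site counts for both genes.

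The gene kars-1 encodes the lysyl-tRNA synthetase, and human KARS1 gives both a cytosolic and a mitochondrial enzyme from 1 gene. Its peak (chrII:7072538-7072967) had a pooled signal of 122 and ranked 1779, with the summit in intergenic DNA 338 bp upstream. The signal was 61.6 in replicate 1 and 57.7 in replicate 2, with summits 340 and 359 bp upstream. The replicates differed little, and this was the only one of the 5 sites that lay in the promoter of no other protein-coding gene.

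The gene nars-1 encodes the cytosolic asparaginyl-tRNA synthetase. Its peak (chrI:7090189-7090618) had a pooled signal of 119, rank 1844, with the summit 342 bp upstream. The signal was 47.9 in replicate 1 and 72.6 in replicate 2, with summits 337 and 382 bp upstream. By the strongest overlapping peak of each replicate, this was the widest gap among the 5 sites. The ratio was 1.51 for replicate 2 over replicate 1. At aars-1 and mars-1 the gap depends on which overlapping peak is taken. By the peaks nearest the pooled summit, replicates 1 and 2 gave 36.0 and 54.6 at aars-1, and 60.0 and 16.15 at mars-1. The pooled nars-1 summit was also 336 bp upstream of nduf-6, a gene for a subunit of respiratory complex I that runs the other way. It was thus 6 bp nearer to that start, and nars-1 was not counted when a summit could count only for the nearest start.

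The gene mars-1 encodes the cytosolic methionyl-tRNA synthetase, whose product also charges the tRNA that starts each protein made in the cytosol. Its peak (chrIV:11635755-11636184) had a pooled signal of 108, rank 2095, with the summit 483 bp upstream. Each replicate resolved this region into a pair of peaks rather than 1. Replicate 1 had signals of 60.0 and 39.5 with summits 415 and 665 bp upstream, and replicate 2 had signals of 49.0 and 16.1 with summits 336 and 535 bp upstream. The position of the mars-1 site is therefore less sharply set than that of kars-1 or ears-2. The pooled summit was 678 bp upstream of F58B3.6 on the other strand.

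The gene aars-1 encodes the mitochondrial alanyl-tRNA synthetase. Its peak (chrII:11464421-11464850) had the lowest pooled signal of the 5, 107, and ranked 2111, with the summit 139 bp upstream. Replicate 2 had a signal of 54.6 with its summit 141 bp upstream. Replicate 1 again gave a pair of peaks, with signals of 51.5 at 43 bp downstream of the start, in the 5′ UTR, and 36.0 at 166 bp upstream. The summit also lay 258 bp upstream of rga-1, which runs the other way.

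**Figure D1:**
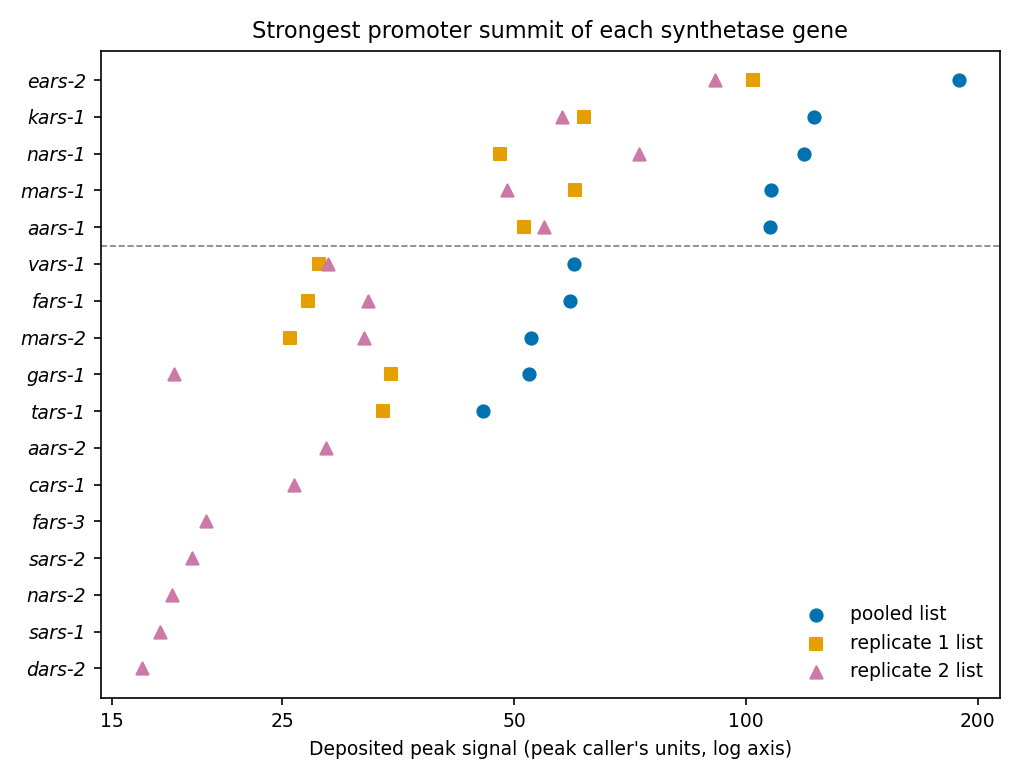
Deposited peak signal (log axis, peak caller's units) of the strongest promoter summit of each of the 17 synthetase genes with a summit in any ce11 list, by list; the 5 genes above the dashed line are in the IDR-thresholded list and those below it are not. Pooled signals of the upper 5 lie between 107 and 189, and the 7 lowest genes have a replicate 2 summit only.

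As a set, the synthetase sites were weak members of a reproducible list. Their pooled signals ran from 107 to 189 with a median of 119, and the 1322 IDR-thresholded promoter peaks ran from 97.2 to 1288 with a median of 163 and a lower quartile of 122. Of the 5, only ears-2 was above the median of all promoter peaks. The ratio of replicate 2 to replicate 1 signal was taken from the strongest overlapping peak of each list. Its median was 0.938 over the 5 sites (range 0.816 to 1.51). Over all promoter peaks with both values it was 0.981, with quartiles of 0.847 and 1.15. By this measure, only nars-1 of the 5 lay above the upper quartile and only mars-1 below the lower one. Every one of the 5 overlapped a peak of each replicate list. Of the 1322 promoter peaks, 1321 overlapped a replicate 1 peak and all 1322 a replicate 2 peak. The IDR-thresholded list is built on agreement between these replicates, so this overlap is not particular to the synthetases. Among the 2404 strongest peaks of both replicates, 3 of the 5 (ears-2, kars-1 and aars-1) had such an overlap. The share of all promoter peaks within this limit was not computed. At aars-1 the replicate 1 peak within that limit had its summit 182 bp from the pooled one. The nearer replicate 1 peak, 27 bp away, ranked 3745 and was outside it. The 5 pooled summits lay a median of 338 bp upstream of the start (range 21 to 483), and over 1720 pairs of gene and promoter site the median was 245 bp upstream. The members' median was at −250 bp without replicate 1 and at −185 bp without replicate 2, over 4 genes each, so no distance from the median of all pairs can be read from it.

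**Figure D2:**
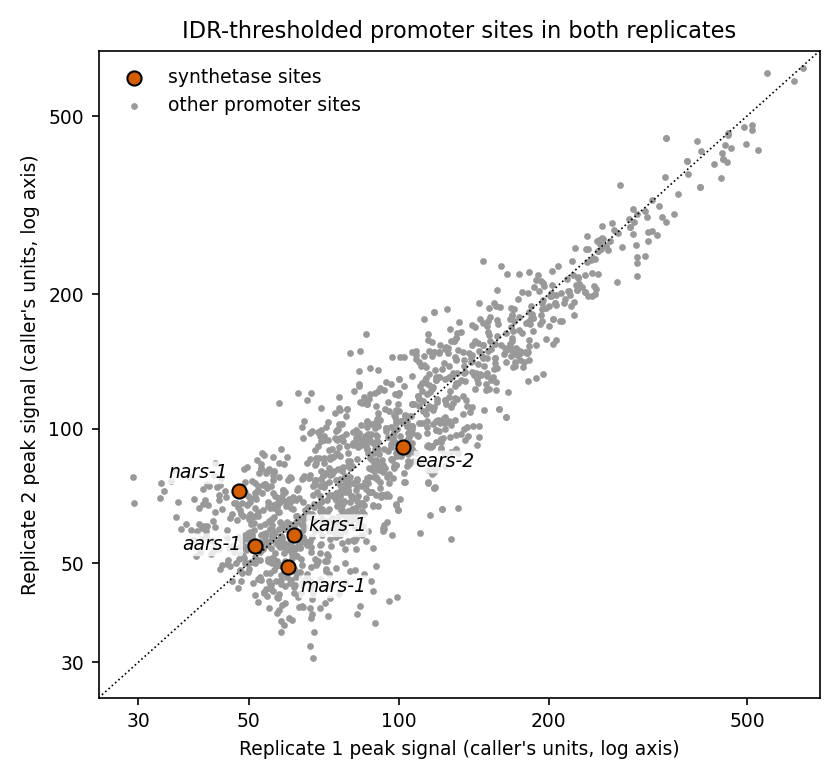
Replicate 2 against replicate 1 peak signal (log axes, peak caller's units) for IDR-thresholded promoter sites, each taken as the strongest overlapping peak of that replicate list; orange points are the 5 synthetase sites, grey points the other promoter sites, and the dotted line marks equal signals. The 5 synthetase sites lie in the lower part of the cloud, with ears-2 highest at 102 and 91.1.

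Weaker summits were present at 12 more members. In the pooled list 10 of 33 had a promoter summit, 30.3% (95% Wilson interval 17.4 to 47.3), beside 19.4% of all protein-coding genes. Replicate 1 alone also gave 10 of 33 (30.3%) beside 18.0%. Replicate 2 alone gave 16 of 33, 48.5% (32.5 to 64.8), beside 25.7%. The replicate 2 list is longer, and at the length of the replicate 1 list it gave 10 of 33 as well, beside 19.3%. Members with a summit in both replicate lists numbered 9, or 27.3%, beside 15.2% of all genes.

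Of these weaker sites, 4 were found in both replicates and in the pooled list. The gene vars-1, for a valyl-tRNA synthetase, had a pooled signal of 59.8 with the summit 71 bp upstream, and the replicates placed it 13 and 14 bp upstream with signals of 27.9 and 28.7. The gene fars-1, for a subunit of the cytosolic phenylalanyl-tRNA synthetase, had a pooled signal of 59.1 with the summit 869 bp upstream, in the 3′ UTR of T08B2.15, and replicate signals of 27.0 and 32.2. These sites were close in strength in both replicates, but their pooled signals stood well under 97.2, the lowest in the IDR-thresholded list.

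The gene mars-2, for the mitochondrial methionyl-tRNA synthetase, had a pooled signal of 52.6 with the summit 142 bp downstream of the start, in an intron. Replicate 1 had 25.6 at 25 bp downstream, and replicate 2 had 3 summits, the strongest with 31.9 at 178 bp downstream. The gene gars-1, whose human counterpart supplies glycyl-tRNA synthetase to both compartments, had a pooled signal of 52.2 in an intron 184 bp downstream. Its replicate 1 signal was 34.6 and its strongest replicate 2 signal was 18.1, so this site was close to the lower end of the replicate 2 list, which stops at 15.8.

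The cytosolic threonyl-tRNA synthetase gene tars-1 had a summit in the pooled list (signal 45.5, 82 bp upstream, in an intron of kel-1) and in replicate 1 (33.8), but none in replicate 2. A further 7 members had summits in replicate 2 alone: aars-2, cars-1, fars-3, sars-1, dars-2, nars-2 and sars-2. The share of all protein-coding genes found in replicate 2 alone was not computed. The longer replicate 2 list called 25.7% of all genes and the replicate 1 list 18.0%. The 9 summits of these 7 members had signals from 16.4 to 28.5 with a median of 19.1 and ranks from 4652 to 12223. The strongest were at aars-2, the cytosolic alanyl-tRNA synthetase gene (28.5, 349 bp upstream), and at cars-1, the cysteinyl-tRNA synthetase gene (25.9, 99 bp upstream). The dars-2, nars-2 and sars-1 summits lay in coding exons, 200, 28 and 166 bp downstream of a start. A sars-2 summit also lay in a coding exon, 23 bp downstream of a start (17.9). A fars-3 summit lay in the 3′ UTR of zyg-9, 370 bp upstream (19.6). The dars-2 summit sits on the edge of the promoter rule, while qars-1 missed it by 2 bp, with a replicate 2 summit of signal 18.7 at 202 bp downstream.

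**Figure D3:**
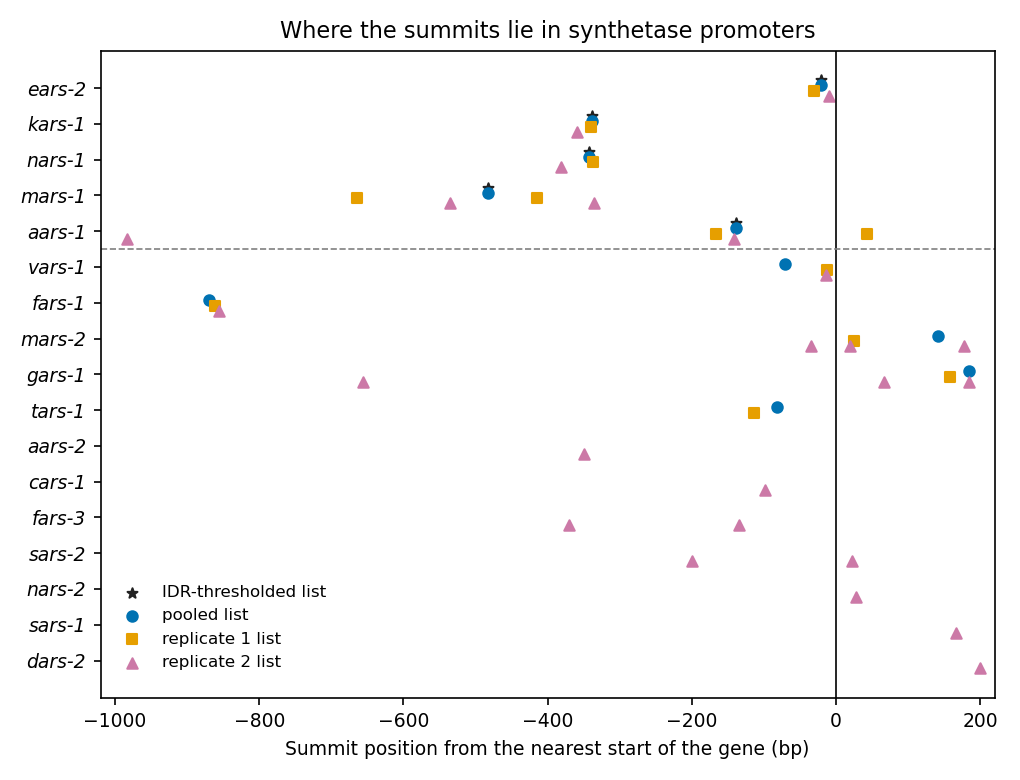
Position of every promoter summit of the 17 synthetase genes relative to the nearest start of the gene (bp, upstream to the left), with 1 symbol for each list; genes above the dashed line are in the IDR-thresholded list. Symbols of all lists coincide at ears-2 and kars-1. They are spread from 336 to 665 bp upstream at mars-1, and from 983 bp upstream to 43 bp downstream at aars-1.

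No summit in any of the 4 lists was found at 16 members, 48.5%, beside 71.3% of all protein-coding genes. Among the cytosolic enzymes these were dars-1, ears-1, iars-1, lars-1, pars-1, qars-1, rars-1 and wars-1. Among the mitochondrial ones they were fars-2, iars-2, lars-2, pars-2 and rars-2, and the remaining 3 were hars-1, yars-1 and yars-2. The 28 members without an IDR-thresholded summit had their nearest one at a median of 23355 bp from a start, and 21 of them had it beyond 10000 bp. These distances were not computed for other genes without a summit, so they do not set the members apart. The nearest were iars-2, with a peak of signal 149 at 1818 bp upstream, and sars-2, with a peak of signal 120 at 1898 bp downstream of the nearest start. These were followed by vars-1 (3777 bp), aars-2 (4094 bp) and rars-1 (4599 bp). At the other end, the nearest to fars-2 was 127698 bp away. A low signal and a lack of enrichment cannot be told apart here, since the lists hold no values outside peaks.

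Members were split by the compartment of the enzyme, from the RefSeq product name for 15 and from general knowledge of the family for 15, and 3 were left unassigned (vars-1, yars-1 and yars-2). In the IDR-thresholded list 2 of 16 cytosolic genes had a summit (mars-1 and nars-1), 12.5% (95% Wilson interval 3.50 to 36.0), and 2 of 11 mitochondrial genes (ears-2 and aars-1), 18.2% (5.14 to 47.7). Of the 3 single genes taken to serve both compartments, kars-1 had one. The share over all protein-coding genes in that list was 8.09%, which lies inside both intervals. These intervals overlap over most of their length, so a difference between the compartments was not detectable with so few genes. In the pooled list the counts were 4 of 16 for cytosolic and 3 of 11 for mitochondrial genes, beside 19.4% of all genes. In replicate 2 they were 7 and 6, beside 25.7%, and 5 and 3 with that list at the length of the replicate 1 list, beside 19.3%.

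Gene arrangement differed among the members. Many nematode genes lie in operons, in which a downstream gene is transcribed from the promoter of an upstream one. A start lay within 500 bp downstream of the end of another protein-coding gene on the same strand for 12 members. None of these had an IDR-thresholded summit, beside 5.01% of all genes so placed, and 12 genes are too few to tell the shares apart. In the pooled, replicate 1 and replicate 2 lists 3, 3 and 6 of the 12 had a summit. The shares over all protein-coding genes were 19.4%, 18.0% and 25.7%. Shares over all genes so placed were not computed in these 3 lists, so the 2 sets are not alike. The gene just upstream had an IDR-thresholded promoter summit in 1 of the 12 cases, beside 8.09% of all protein-coding genes. It was C25A1.16 before iars-2, where the summit of signal 149 was at −600 bp from the start of that gene. In the pooled and replicate 2 lists 4 and 5 of the 12 upstream genes had a summit, beside 19.4% and 25.7%. A start on the other strand within 1000 bp upstream was present for 11 members, of which 3 (ears-2, aars-1 and nars-1) had a summit, beside 17.2% of all genes with such a neighbour. Without such a neighbour it was 2 of 22 members, beside 6.13% of all genes. Divergent members are thus not separated from other divergent genes by these counts.

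Sequence motifs were counted on both strands within 50 bp of the summit and over whole promoters. The nuclear receptor motif AGGTCA was in none of the 5 member windows, in 5.69% of 1317 other IDR-thresholded promoter windows and in 2.68% of windows of the same length centred 245 bp upstream of all protein-coding starts. The longer form TAGGTCA, which contains it, the E-box CACGTG, the GATA factor site GATAAG and TGATGNAA, a core of the element through which ATF4 acts on amino acid genes in mammals, were also in none of the 5. The share of other summits holding them was 0.683%, 7.06%, 5.09% and 2.28%, and of all promoters 0.746%, 1.58%, 4.50% and 2.54%. GAGAGA was in 1 of 5 (aars-1), in 21.8% of other summits and in 6.57% of all promoters. No match says only that these letters are not in these windows.

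Over the whole promoter of 1201 bp, measured from the most upstream start, AGGTCA was present at 5 of 33 members, 15.2%, against 26.7% of other protein-coding genes. They were aars-1, dars-1, lars-1, nars-2 and sars-1. At aars-1 there were 2 copies, 518 and 500 bp upstream, both on the strand of the gene and away from the ChIP summit at 139 bp upstream. The other 4 had no IDR-thresholded summit. TGATGNAA was present at 9 of 33 promoters (27.3%), against 28.1% of other genes, and lars-1 and iars-1 had 2 copies each close to the start, at 79 and 59 bp and at 109 and 74 bp upstream. GAGAGA was present at 20 of 33 (60.6%), against 50.9%. The E-box was present at 5 (15.2%), against 18.4%, and at none of the 5 genes with an IDR-thresholded summit. GATAAG was present at 11 (33.3%), against 41.6%, among them ears-2, kars-1, nars-1 and aars-1, at positions outside the summit windows. TAGGTCA was present at aars-1, lars-1 and nars-2, 9.09%, against 7.59%.

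Genes that work next to the synthetases were set beside them. Elongation factors carry charged tRNA to the ribosome or move it along. An IDR-thresholded summit was present at 7 of 10, beside 8.09% of all protein-coding genes. In replicate 2 all 10 had a summit, beside 25.7%. The IDR-thresholded summits of eef-2, eef-1A.1, eef-1G, eef-1A.2 and eef-1B.1 had pooled signals of 528, 407, 402, 396 and 281, each above the 189 of ears-2. The other two were the mitochondrial factor genes gfm-1 (179) and tufm-2 (122). The strongest elongation factor site, eef-2, had signals of 266 in replicate 1 and 262 in replicate 2, with summits 12 and 10 bp upstream of the start.

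Of 6 genes listed for the response to uncharged tRNA, 2 had an IDR-thresholded summit, beside 8.09% of all protein-coding genes. In replicate 2 all 6 had a summit, beside 25.7%. The 2 were abcf-3, whose product works with GCN-1 (110.1, 206 bp upstream), and pek-1 (110.6, 305 bp upstream). The eIF2 alpha kinase made from pek-1 responds to unfolded proteins in the endoplasmic reticulum, not to uncharged tRNA. It shares only the eIF2 alpha step with the others. The transcription factor gene atf-4 had a summit in the pooled and both replicate lists (91.4, 34.8 and 59.3) but not in the IDR-thresholded list. Summits of gcn-1, gcn-2 and eif-2alpha were in replicate 2 alone, with signals of 17.2, 26.0 and 19.6. Of 11 tRNA maturation genes, 1 had an IDR-thresholded summit, elpc-2, an Elongator subunit gene with a signal of 209 at 77 bp upstream. That is 9.09%, close to the 8.09% of all protein-coding genes.

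Cytosolic ribosomal protein genes had an IDR-thresholded summit at 49 of 80 (61.25%, 95% Wilson interval 50.3 to 71.2) and mitochondrial ribosomal protein genes at 10 of 69 (14.5%, 8.07 to 24.7). The share over all protein-coding genes was 8.09%. The synthetase share of 15.2% was close to that of the mitochondrial ribosomal proteins, and its interval did not reach that of the cytosolic ones. The strongest signal of each counted gene had a median of 119 over the 5 synthetase genes, 213 over the 49 cytosolic and 197 over the 10 mitochondrial ribosomal protein genes, and 170 over all 1615 counted genes. These differences were not tested, and a peak between divergent genes enters such counts more than once.

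**Figure D4:**
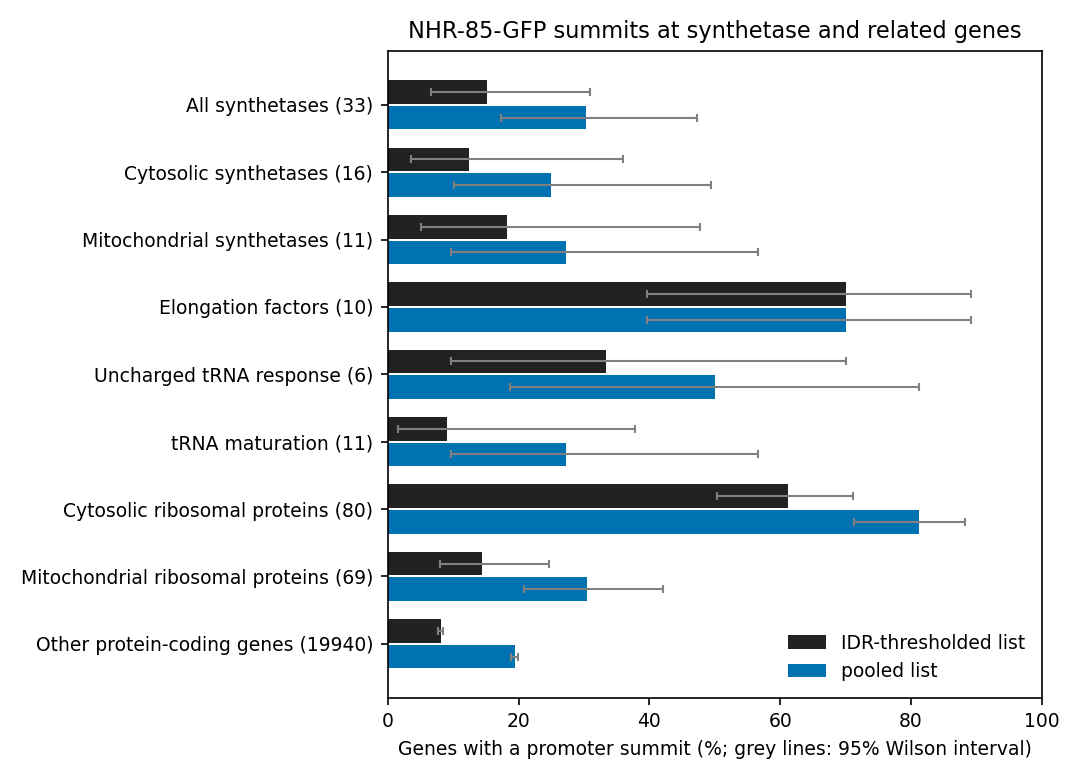
Share of genes with a promoter summit (percent, axis from 0) in the IDR-thresholded and pooled lists, with the number of genes in parentheses and 95% Wilson intervals as grey lines. Synthetases stand at 15.2% and 30.3%, elongation factors at 70% in both lists, and other protein-coding genes at 8.07% and 19.4%.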

How the data were processed

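Both samples are ChIP-seq of the same strain and stage and form 1 group, so no test between conditions was made. The deposited signal of each peak is the authors' value in the peak caller's units, and the deposited −log10 q-value was not used to rank, since it sits at its ceiling in 67.8% of IDR-thresholded peaks. Per the deposited file descriptions, peaks were called against a control alignment for each replicate and on pooled reads, and the IDR-thresholded list was made from these. The peak caller, the aligner and the thresholds were not given in the sources used here. Lists on ce10 were not used, because the reference was WBcel235 (ce11).

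Lines with the same interval were reduced to the stronger one (2410 lines became 2404), and summit positions were kept within their peaks. Starts came from Ensembl release 115 and sequence from RefSeq. Where promoters overlapped, 1 summit could count for more than 1 gene. Overlap meant at least 1 bp. The 95% Wilson intervals describe counting error alone. Analysis used Python 3.11.15, pandas 2.3.3 and scipy 1.17.1, and the promoter rule was tested on simulated data.

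The synthetase genes, the related lists, the motifs and the rule for naming genes were chosen with earlier results of these data known. Every synthetase gene is named, and, apart from ribosomal proteins, every related gene with an IDR-thresholded summit. No enrichment test was run.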

Additional observations from a re-analysis of the deposited data

How the results depend on the processing

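The count of 5 synthetase genes was 5 with a promoter of 500 bp upstream and 100 bp downstream, 6 with 2000 and 500 bp (iars-2 was added) and 4 with nearest starts only. Leaving out the 12 operon-like members or mars-2 could not change it, since none of them was counted. Without either replicate, in the 2404 strongest peaks of the other, it was 4 (nars-1 was lost in replicate 1 and mars-1 in replicate 2). In the stronger 1202 peaks it was 1, ears-2, which left 0 cytosolic, 1 mitochondrial and 0 dual-compartment genes. In the pooled list it was 10, with 4 cytosolic and 2 dual-compartment genes. The cytosolic count of 2 was 1 with nearest starts only and 1 without either replicate. Sites found in both replicates numbered 3 rather than 5 when each replicate list was limited to its 2404 strongest peaks. The median summit position was −338 bp over the 5 pooled summits. Without replicate 1, the 4 replicate 2 summits were at −9, −141, −359 and −382 bp, with a median of −250 bp. Without replicate 2, the 4 replicate 1 summits were at 43, −30, −340 and −415 bp, with a median of −185 bp. Each of these medians lies between 2 summits far apart and leaves out 1 of the 5 genes.

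With replicate 2 at the length of the replicate 1 list, an alternative added after seeing the data, mitochondrial genes with a summit numbered 3 rather than 6 and dual-compartment genes 1 rather than 2. The related lists were computed under the main setting and in the pooled and replicate lists only. Depth is unknown, and its part in sites missing from 1 list was not tested.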

Other observations

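Synthetases under other names lay outside the rule and had no IDR-thresholded summit: glp-4 (valine), prx-10, whose RefSeq products include a mitochondrial tryptophan-tRNA ligase, and K03B4.1, which RefSeq lists as a seryl-tRNA synthetase. Only prx-10 had a promoter summit in any list, in replicate 2, with a signal of 19.1 at 51 bp downstream of a start. The genes mars-2 and yars-1 follow each other on the same strand with 110 bp between them. The first had summits in the pooled and both replicate lists, and yars-1 had none in any list. At aars-1, replicate 2 had a second summit 983 bp upstream, in the coding sequence of rga-1, with a signal of 24.5.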
